A study of Mus musculus with 47 samples.

Results

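The 10 genes described here belong to the endoplasmic reticulum (ER) stress response and the integrated stress response, and were followed in hypothalami of Lep ob/ob mice, which lack functional leptin and become obese and diabetic. The genes were taken by symbol from a table of counts per gene: Hspa5, Hsp90b1 and Calr (chaperones of the ER), Herpud1 (degradation of misfolded ER proteins), Xbp1, Atf4 and Ddit3 (transcription factors), and Trib3, Asns and Sesn2 (genes known as ATF4 targets). Of these 10 genes, 9 were among the 14221 genes of the table, and the expression of Trib3 was not analysed here.

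The 47 libraries each came from 1 male mouse with a labelled age of 11 weeks. FGF1-treated mice had received a single intracerebroventricular (icv) injection of 3 µg of fibroblast growth factor 1, and vehicle-treated mice an icv injection of vehicle with food matched to the intake of FGF1-treated mice. Day 1 after injection had 10 FGF1-treated and 4 vehicle-treated mice, and Day 42 had 5 of each. Day 5 had 9 FGF1-treated mice and 2 vehicle-treated groups of 7 mice, labelled non-diabetic and diabetic. The vehicle-treated mice of Days 1 and 42 were labelled non-diabetic. The comparisons ask how the hypothalamus as a whole responded to icv FGF1 at each time, so the cells that carried a change are not known, and fewer cells of a type and less RNA per cell cannot be told apart.

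The ER folds proteins that are to be secreted or placed in membranes. When unfolded proteins collect there, the sensors IRE1 (gene Ern1), PERK (Eif2ak3) and ATF6 start the unfolded protein response: IRE1 splices Xbp1 mRNA into the form that encodes the active factor, ATF6 and XBP1 raise chaperone genes, and PERK phosphorylates the translation factor eIF2. Phosphorylated eIF2 slows protein synthesis while favouring translation of ATF4, which raises genes of amino acid supply. Other kinases, among them GCN2 (Eif2ak4) for amino acid shortage, reach ATF4 by the same step, which is why this arm is called the integrated stress response. Counts per gene measure mRNA only, and show neither Xbp1 splicing nor ATF4 protein.

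Some promoters of these genes hold elements through which the response is known to act. RefSeq (GRCm38.p6) gave 1 promoter for each of the 10 genes, from 250 bases before the start of transcription to 50 bases after it. They were searched on both strands for 4 motifs: the ER stress element (CCAAT, any 9 bases, then CCACG), ER stress element II (ATTGG, any base, then CCACG), the unfolded protein response element (TGACG directly followed by TGG) and the C/EBP-ATF response element (TGATG, any base, then AA). Overlap between motifs was allowed, and only exact matches were counted, so variants of a motif are not marked. In the GENCODE M21 annotation of GRCm38, Xbp1 lies at chr11:5520659-5525893, Atf4 at chr15:80255184-80257541, Calr at chr8:84841850-84846934 and Herpud1 at chr8:94386438-94395377, with all exons counted as 1 gene. The 250 bases before the start are shown for the 5 genes with a match there, since these genes gave different results after FGF1. Matches are in capitals, and those on the opposite strand read in reverse complement.
Hspa5, chr2:34771840-34772089, plus strand: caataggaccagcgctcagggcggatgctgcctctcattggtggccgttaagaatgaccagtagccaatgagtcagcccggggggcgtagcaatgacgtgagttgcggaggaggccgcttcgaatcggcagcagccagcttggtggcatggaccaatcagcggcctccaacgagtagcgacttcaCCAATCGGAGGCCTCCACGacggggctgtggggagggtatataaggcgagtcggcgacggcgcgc
Hsp90b1, chr10:86705445-86705694, minus strand: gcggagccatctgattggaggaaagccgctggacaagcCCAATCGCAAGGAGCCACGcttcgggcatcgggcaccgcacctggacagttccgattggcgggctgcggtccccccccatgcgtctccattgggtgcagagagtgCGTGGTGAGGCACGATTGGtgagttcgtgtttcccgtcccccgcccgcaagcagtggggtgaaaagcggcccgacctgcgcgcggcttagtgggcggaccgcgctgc
Calr, chr8:84846932-84847181, minus strand: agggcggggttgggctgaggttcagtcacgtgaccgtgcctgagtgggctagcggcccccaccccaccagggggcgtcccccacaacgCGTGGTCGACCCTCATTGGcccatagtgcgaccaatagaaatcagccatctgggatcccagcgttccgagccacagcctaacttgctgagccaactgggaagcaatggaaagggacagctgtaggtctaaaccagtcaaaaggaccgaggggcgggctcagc
Herpud1, chr8:94386179-94386428, plus strand: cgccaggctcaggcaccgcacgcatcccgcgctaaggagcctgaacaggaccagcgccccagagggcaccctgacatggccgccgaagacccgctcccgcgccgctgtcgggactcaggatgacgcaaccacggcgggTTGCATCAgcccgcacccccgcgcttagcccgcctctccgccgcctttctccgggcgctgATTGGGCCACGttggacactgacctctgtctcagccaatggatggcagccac
Asns, chr6:7693210-7693459, minus strand: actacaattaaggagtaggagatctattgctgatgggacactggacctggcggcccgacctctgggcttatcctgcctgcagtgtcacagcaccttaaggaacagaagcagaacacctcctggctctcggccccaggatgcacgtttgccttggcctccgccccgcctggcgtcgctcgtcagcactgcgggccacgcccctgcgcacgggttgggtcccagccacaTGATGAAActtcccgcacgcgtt

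The ER stress element was found in Hspa5, beginning 65 bases before the start, in Calr at 162 bases on the opposite strand, and in Hsp90b1 at 212 bases and, on the opposite strand, at 107 bases. It was present in 0.119% of the 32851 promoters of the same length. ER stress element II, present in 0.0365% of promoters, was found in Herpud1 at 52 bases. The C/EBP-ATF response element, present in 3.97% of promoters, was found in Asns at 23 bases, in Herpud1 on the opposite strand at 112 bases and in Trib3 on the opposite strand, 14 bases after the start. The unfolded protein response element, present in 0.676% of promoters, was in none of the 10 windows. The promoters of Xbp1, Atf4, Ddit3 and Sesn2 held none of the 4 motifs in these windows, which says nothing of the factors' binding elsewhere.

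All libraries of a day shared 1 preparation code, so differences in level between days cannot be told apart from preparation, whereas FGF1 and vehicle were always compared inside 1 preparation. Total counts ran from 1243280 to 47082403 on Day 1, from 7579695 to 30009258 on Day 5 and from 19416026 to 43934003 on Day 42. On Day 5, FGF1-treated mice 8 and 9 had 30009258 and 27922117 counts, and every other mouse had at most 12451642. Which instrument read which library is not stated. The lowest total was that of FGF1-treated mouse 1 of Day 1, with 10 reads for Ddit3. All 18 listed markers of hypothalamus were in the table, with a summed level between 524 and 1939 normalized counts (CPM, with library totals scaled by TMM factors) in each mouse. On Day 1 that sum ran from 1070 to 1544 CPM after FGF1 and from 1471 to 1939 CPM with vehicle, with 2 higher and 2 lower DEGs among the 18. Markers of thalamus were also high, with 330 to 1770 CPM over 6 genes. The 2 measured markers of anterior pituitary summed to at most 20.3 CPM, and the hormone genes Gh and Prl were not in the table used here. Since any filter on its genes is not given, a missing gene may still have been expressed.

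Per kilobase of exon, the levels fell into 3 ranks in vehicle-treated mice of Day 5 labelled non-diabetic. Calr, Hsp90b1 and Hspa5 were highest, with mean levels of 101, 82.6 and 82.4 CPM per kilobase. Atf4, Asns, Herpud1 and Xbp1 followed with 43.1, 42.9, 41.9 and 33.7 CPM per kilobase, and Ddit3 and Sesn2 were lowest with 9.93 and 3.42 CPM per kilobase. Hsp90b1 and Hspa5 differed by less than their spread between mice, and so did Atf4, Asns and Herpud1. On the CPM scale, Hspa5 averaged 762 ± 152 (SD, n = 4) in vehicle-treated mice of Day 1, 348 ± 9.13 (n = 7) in the non-diabetic group of Day 5 and 447 ± 49.5 (n = 5) on Day 42. Asns was the most even, with group means between 115 and 124 CPM in all 7 groups.

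**Figure D1:**
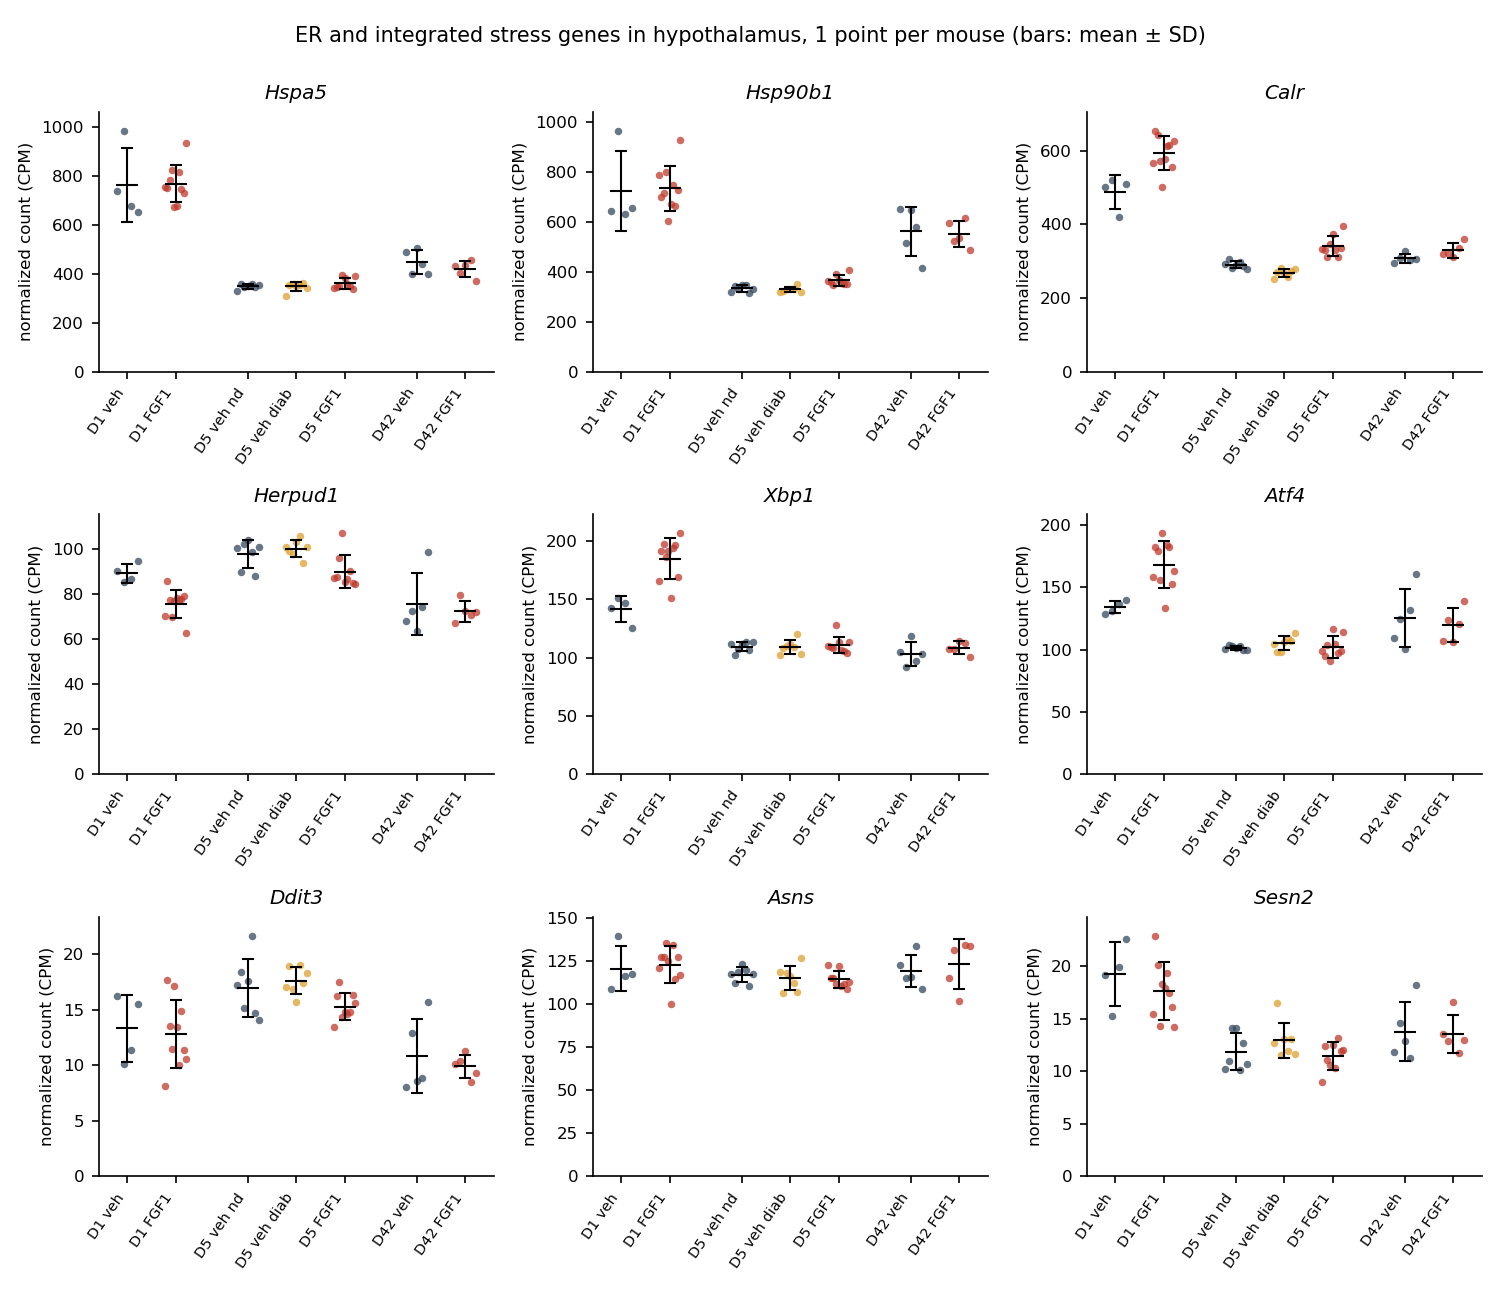
Normalized count (CPM, linear axis from 0) of each of the 9 genes in every mouse, by day (D1, D5, D42) and group, with FGF1-treated mice in red, vehicle-treated mice in dark blue and the diabetic vehicle group of Day 5 in yellow; bars give mean and SD. On Day 1 the red points lie mostly above the dark points for Calr, Xbp1 and Atf4 and mostly below them for Herpud1, and on Day 5 all red points of Calr lie above both vehicle groups.

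On Day 1, mRNAs of the transcription factors Xbp1 and Atf4 and of the chaperone Calr were higher in FGF1-treated mice and Herpud1 mRNA was lower, while the ER chaperones Hspa5 and Hsp90b1 showed no detectable difference. Here a gene is said to have changed with an adjusted p below 0.05 (edgeR quasi-likelihood test, Benjamini-Hochberg over 14221 genes) and is a differentially expressed gene (DEG) when its absolute log2 fold change (log2 FC) is also above 0.5. By that rule 4 of the 9 genes changed, next to 45.0% of all genes, 23.4% higher and 21.6% lower. None of the 9 was a DEG, next to 19.5% of all genes, and DESeq2 likewise made 0 of them DEGs. The shares of changed genes and of DEGs lay near or below those of all genes. An unadjusted p below 0.05 was found for 4 of the 9, and for 7345 of the 14221 genes.

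Xbp1 gave 125.8, 142.6, 147.3 and 151.5 CPM in the 4 vehicle-treated mice and 150.9 to 206.7 CPM (median 191.6) in the 10 FGF1-treated mice. All but 1 of the FGF1-treated mice lay above every vehicle-treated mouse. The increase of 30.8% (log2 FC = 0.39 ± 0.06 SE, adjusted p = 3.09e-06; two-sided exact permutation p = 0.00200) was the largest among the 9 genes, and its 95% confidence interval on the log2 scale ran from 0.26 to 0.52.

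Atf4 was between 128.9 and 140.0 CPM in the vehicle-treated mice and between 133.2 and 193.5 CPM (median 171.0) after FGF1. Here too 9 of the 10 FGF1-treated mice exceeded all vehicle-treated mice. The log2 FC was 0.33 ± 0.08 (adjusted p = 0.00115; exact permutation p = 0.00699), an increase of 25.7%.

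Calr encodes calreticulin, a lectin chaperone for glycoproteins that also buffers calcium. It measured 418.6, 500.5, 508.6 and 519.0 CPM with vehicle and 502.1 to 653.1 CPM (median 594.7) with FGF1. Vehicle-treated mouse 3 lay apart at the low end, and 1 FGF1-treated mouse fell within the vehicle range. The log2 FC was 0.28 ± 0.06 (adjusted p = 1.26e-04; exact permutation p = 0.00300).

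Herpud1 moved the other way. Its product helps to assemble the machinery that passes misfolded ER proteins to the proteasome. The vehicle-treated mice had 85.34, 86.55, 90.12 and 94.72 CPM, and the FGF1-treated mice 62.73 to 85.61 CPM (median 77.2), with 9 of 10 below every vehicle-treated mouse. It fell by 0.24 on the log2 scale (SE 0.07, adjusted p = 0.00649; exact permutation p = 0.00599), or by 15.2%. None of the 9 genes had fully separate groups on Day 1, next to 14.4% of all genes.

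Hspa5 encodes BiP, the main ER chaperone, and Hsp90b1 encodes GRP94, its partner of the HSP90 family. Both had similar levels with and without FGF1. Hspa5 was at 650.4, 677.5, 739.5 and 982.8 CPM with vehicle and at 673.8 to 932.0 CPM (median 752.7) with FGF1 (log2 FC = 0.01, 95% confidence interval -0.14 to 0.17). Hsp90b1 was at 630.8, 641.8, 653.1 and 962.6 CPM with vehicle and at 600.7 to 926.5 CPM (median 721.4) with FGF1 (log2 FC = 0.02, interval -0.16 to 0.20). In both genes vehicle-treated mouse 2 was far above the other vehicle-treated mice. Without that mouse the log2 FC was 0.16 for Hspa5 (adjusted p = 0.0968) and 0.19 for Hsp90b1 (adjusted p = 0.0919), and Xbp1, Atf4, Calr and Herpud1 kept an adjusted p below 0.05.

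Ddit3, Asns and Sesn2, which lie downstream of ATF4, gave no detectable change. Ddit3, which encodes the pro-apoptotic factor CHOP, had 12.8 ± 3.09 CPM with FGF1 and 13.3 ± 3.03 CPM with vehicle (log2 FC = -0.02, interval -0.30 to 0.27). Exons of Ddit3 overlap those of Mars and Gm4189, on the other strand, over 68 and 13 bases. They overlap a further Ddit3 entry on the same strand over 105 bases. Exons of Hsp90b1 overlap the pseudogene 1810014B01Rik, on the other strand, over 415 bases. They overlap Gm15344 and Gm25745, on the same strand, over 84 and 133 bases. How strand was treated in counting is not stated. Asns, which encodes asparagine synthetase, was at 123 ± 10.5 CPM against 121 ± 13.3 CPM (log2 FC = 0.03, interval -0.11 to 0.16). Sesn2, whose product sestrin 2 restrains the growth kinase mTORC1 when leucine is scarce, was at 17.6 ± 2.74 CPM against 19.2 ± 3.04 CPM (log2 FC = -0.12, interval -0.35 to 0.12). Vehicle-treated mouse 2 was lowest of its group in Sesn2, with 15.22 CPM where the others had 19.12, 19.97 and 22.56 CPM. The intervals of Ddit3 and Sesn2 are the widest of the 9.

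**Figure D2:**
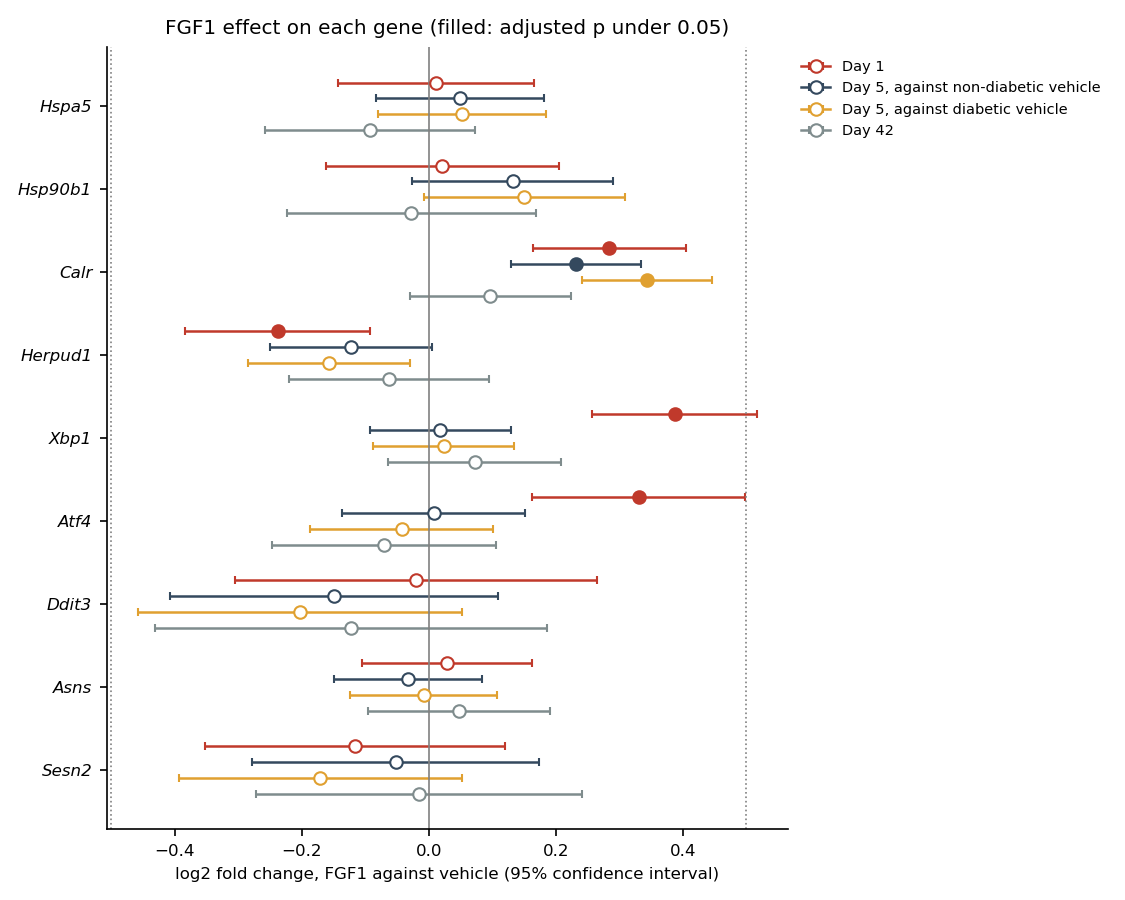
Fitted log2 fold change of FGF1-treated against vehicle-treated mice for the 9 genes, with 95% confidence intervals, on Day 1, on Day 5 against each vehicle group and on Day 42; filled symbols have an adjusted p below 0.05 and dotted lines mark 0.5 in each direction. Filled symbols are those of Calr, Herpud1, Xbp1 and Atf4 on Day 1 and of Calr in both comparisons of Day 5, and none lies beyond a dotted line.

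By Day 5 Calr was the only one of the 9 genes that was changed, and it was higher than in either vehicle group. It measured 311.3 to 394.1 CPM (median 332.0) in the 9 FGF1-treated mice, 278.8 to 304.8 CPM (median 289.4) in the non-diabetic vehicle group and 251.1 to 282.2 CPM (median 269.4) in the diabetic vehicle group. Every FGF1-treated mouse lay above every mouse of both vehicle groups, a separation found in 3.93% of all genes against the non-diabetic group and in 6.08% against the diabetic group. The log2 FC was 0.23 ± 0.05 against the non-diabetic group (adjusted p = 0.00248; exact permutation p = 1.75e-04) and 0.34 ± 0.05 against the diabetic group (adjusted p = 4.06e-06; exact permutation p = 8.74e-05, the smallest this design can give). These comparisons share the FGF1-treated mice. Changed genes made up 4.65% of all genes against the non-diabetic group and 9.21% against the diabetic group. DEGs made up 1.54% and 2.85%, and none of the 9 was among them, with 0 DEGs of the 9 by DESeq2 in both comparisons. An unadjusted p below 0.05 was found for 1 and 2 of the 9, and for 2348 and 3097 of the 14221 genes.

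Markers of glia and of other cell types also differed after FGF1. The summed level of 7 measured markers of astrocytes and tanycytes ran from 3228 to 4460 CPM in FGF1-treated and from 1801 to 2127 CPM in vehicle-treated mice of Day 1, and on Day 5 from 1796 to 2195 CPM after FGF1 against 1287 to 1395 CPM over both vehicle groups. Single markers of this list went both ways on Day 1, with 4 higher and 2 lower (3 and 1 DEGs) and log2 FC from -0.77 for Gja1 to 3.65 for Nes. Against each vehicle group of Day 5, 5 of the 7 were higher and all 7 had a positive log2 FC. That of 10 markers of microglia and macrophages ran from 216 to 321 CPM against 184 to 208 CPM on Day 1, and from 304 to 390 CPM against 207 to 411 CPM on Day 5, with 1 vehicle-treated mouse at the upper end. Of these 10 genes, 9 were DEGs with higher levels on Day 1, and P2ry12 was a DEG with a lower level (log2 FC = -0.66). On Day 5 all 10 had a positive log2 FC against both vehicle groups, with 4 higher by the test against the non-diabetic group and 7 against the diabetic group (median 0.38 and 0.63). Of 4 measured markers of choroid plexus 2 were DEGs with lower levels on Day 1, and the 4 summed to 21.0 to 38.4 CPM against 45.4 to 58.5 CPM. The 6 measured markers of meningeal fibroblasts summed to 116 to 420 CPM against 171 to 271 CPM on Day 1, with 2 higher and 1 lower DEGs. On Day 5 they summed to 142 to 288 CPM after FGF1, 130 to 192 CPM in the non-diabetic and 133 to 201 CPM in the diabetic group. All 6 had a positive log2 FC against both groups (median 0.75 and 0.59), and 2 were DEGs against the non-diabetic group. Rax, Dpt, Ttr and Folr1 were not in the table used here. The part of these cell types in the Calr, Xbp1, Atf4 and Herpud1 results was not tested.

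Hsp90b1 on Day 5 was at 344.9 to 407.8 CPM (median 357.6) after FGF1, at 314.0 to 347.0 CPM in the non-diabetic and at 316.4 to 348.7 CPM in the diabetic vehicle group. In each comparison 8 of 9 FGF1-treated mice exceeded all vehicle-treated mice, and the exact permutation p was 5.24e-04 and 3.50e-04. The model over all 47 libraries did not call it (log2 FC = 0.13 ± 0.08, adjusted p = 0.430, and 0.15 ± 0.08, adjusted p = 0.259). A fit of the Day 5 libraries alone did (adjusted p = 0.00209 and 3.56e-04). That fit, however, put 20.9% of all genes at an adjusted p below 0.05 against the non-diabetic and 30.8% against the diabetic group, next to 2 and 4 of the 9 genes. The estimated increase was 9.58% and 11.0%. The cause of this difference between the fits was not tested.

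Herpud1 again lay lower, at 84.32 to 106.8 CPM (median 86.95) after FGF1, 87.90 to 103.9 CPM in the non-diabetic and 93.68 to 105.6 CPM in the diabetic group. FGF1-treated mouse 4 was above every vehicle-treated mouse, and 6 and 7 of the other mice were below every mouse of the respective vehicle group. The log2 FC was -0.12 (adjusted p = 0.337) and -0.16 (adjusted p = 0.113), with an exact permutation p of 0.0386 and 0.00603. In the fit of Day 5 alone, with its share of 30.8% of all genes, the difference from the diabetic group had an adjusted p of 0.0101.

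Xbp1 and Atf4 showed no detectable difference from vehicle on Day 5. Xbp1 was at 103.6 to 127.8 CPM after FGF1 and 102.2 to 113.8 CPM in the non-diabetic group (log2 FC = 0.02, interval -0.09 to 0.13). Atf4 was at 90.75 to 116.9 CPM and 99.76 to 103.5 CPM (log2 FC = 0.01, interval -0.14 to 0.15). The FGF1 effect on Day 5 differed from that on Day 1 for both, by -0.37 ± 0.08 for Xbp1 (adjusted p = 7.70e-04) and by -0.32 ± 0.11 for Atf4 (adjusted p = 0.0240). Such a difference was found in 26.6% of all genes, and in 15.8% with an absolute log2 value above 0.5. For Calr it was -0.05 (interval -0.21 to 0.10) and for Herpud1 0.12 (interval -0.08 to 0.31), neither of which passed the test. The Atf4 call was lost without vehicle-treated mouse 1 of Day 1 (adjusted p = 0.0519) or mouse 2 (adjusted p = 0.0535), with a difference that stayed between -0.30 and -0.31.

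Hspa5 (log2 FC = 0.05), Asns (-0.03) and Sesn2 (-0.05) showed no detectable difference from the non-diabetic group on Day 5. Ddit3 was at 13.46 to 17.53 CPM after FGF1, 14.06 to 21.68 CPM in the non-diabetic and 15.74 to 19.03 CPM in the diabetic group. In the fit of Day 5 alone, which called 30.8% of all genes, it was lower than in the diabetic group (log2 FC = -0.19, adjusted p = 0.0430), whereas the model over all libraries gave -0.20 (adjusted p = 0.371). Of the 9 FGF1-treated mice 6 lay below every diabetic vehicle-treated mouse, with an exact permutation p of 0.00315, and 1 lay below every non-diabetic mouse (exact permutation p = 0.109).

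The 2 vehicle groups of Day 5 differed in no gene of the table by edgeR or DESeq2 (0.0% of genes), with 193 genes at an unadjusted p below 0.05. Calr was the only one of the 9 stress genes with such a p. It was lower in the diabetic group in 6 of 7 mice than in any non-diabetic mouse, by 0.11 on the log2 scale (interval -0.22 to -0.0041, adjusted p = 1.00; exact permutation p = 0.00233).

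On Day 42 none of the 9 genes, and no gene of the table, differed by treatment (0.0% of genes by edgeR, and 0 by DESeq2; 776 genes and 0 of the 9 had an unadjusted p below 0.05). Without FGF1-treated mouse 1 of Day 42, 31 genes of the table were DEGs, and without mouse 2 it was 1 gene, none of them among the 9. FGF1-treated mouse 5 stood apart in tissue markers, with 670.5 CPM over 4 markers of cortex and hippocampus and 204.5 CPM over 4 of choroid plexus, where the other mice of Day 42 had at most 198.9 and 47.1 CPM. Without it the log2 FC of Calr was 0.06, and edgeR again called none of the 9 genes. Calr was at 310.2, 319.1, 321.7, 335.2 and 361.2 CPM after FGF1 and at 295.7, 303.7, 306.0, 307.0 and 328.1 CPM with vehicle. All 5 FGF1-treated mice were above the vehicle median, and the groups overlapped (log2 FC = 0.10, interval -0.03 to 0.22; exact permutation p = 0.0714, where 0.00794 is the smallest possible). Fully separate groups were found in 0.267% of all genes and in none of the 9. The interval of Hspa5 ran from -0.26 to 0.07 and that of Herpud1 from -0.22 to 0.09. Vehicle-treated mouse 5 had the highest Herpud1, Atf4, Ddit3 and Sesn2 of its group (98.77, 160.5, 15.74 and 18.20 CPM) and the lowest Hsp90b1 (415.4 CPM).

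From Day 1 to Day 42 the FGF1 effect fell by 0.31 ± 0.09 for Xbp1 (adjusted p = 0.00971) and by 0.40 ± 0.12 for Atf4 (adjusted p = 0.0112), where 25.5% of all genes changed their effect and 16.4% did so by more than 0.5. The fall of Calr by 0.19 had an adjusted p of 0.107. Both differences between days use the same Day 1 mice, and each day is a separate preparation.

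The other genes of these pathways, 100 in the table over 6 lists, changed in both directions on Day 1. Higher levels were found in 39 and lower levels in 10 of the 100, next to the 23.4% higher and 21.6% lower of all genes, which are also the background of the list counts given next. DEGs were 19 and 4 of the 100. Their median log2 FC was 0.14 where that of all genes was 0.01. All genes held 11.5% DEGs with higher and 8.05% with lower levels. On Day 5 against the non-diabetic group 4 of the 100 were higher and 0 lower. Among the 100, 22 had an unadjusted p below 0.05, as had 2348 of the 14221 genes. In that comparison 1 was a DEG with a higher level (1.31% of all genes) and 0 with a lower level (0.232% of all genes). DESeq2 gave 3 higher, 0 lower and the same counts of DEGs. Changed genes made up 3.25% higher and 1.4% lower of all genes in that comparison. Against the diabetic group 3 of the 100 were higher and 5 lower, next to 5.79% and 3.42% of all genes, and DESeq2 gave 3 higher and 6 lower. There were 2 DEGs, next to 2.85% of all genes. An unadjusted p below 0.05 was found for 30 of the 100 and for 3097 of the 14221 genes. On Day 42 edgeR and DESeq2 changed 0 of the 100, of which 2 had an unadjusted p below 0.05.

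Among 17 further ER chaperones and folding enzymes, 9 were higher and 1 lower on Day 1 (median log2 FC = 0.19). The DEGs were Sdf2l1, a component of a chaperone complex with BiP, at 8.89 to 15.6 CPM after FGF1 against 5.40 to 7.39 CPM (log2 FC = 0.85 ± 0.14, adjusted p = 2.04e-06), Creld2 at 24.2 to 33.4 CPM against 12.85 to 18.87 CPM (log2 FC = 0.78 ± 0.11), and the disulfide isomerase Pdia4 at 79.0 to 119 CPM against 58.2 to 72.3 CPM (log2 FC = 0.67 ± 0.08). In all 3 every FGF1-treated mouse was above every vehicle-treated mouse, as was so in one direction or the other for 14.4% of all genes, and these 3 were chosen for the size of their change. Sdf2l1 and Pdia4 were also higher on Day 5, by 0.43 ± 0.13 (adjusted p = 0.0377) and 0.34 ± 0.07 (adjusted p = 9.97e-04) against the non-diabetic group. Against the diabetic group they were higher by 0.67 ± 0.13 and 0.40 ± 0.07, and Sdf2l1 was a DEG there. In the list of 20 that includes the members, Calr, Sdf2l1 and Pdia4 were the genes with higher levels on both days.

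Of 17 genes of ER-associated degradation and translocation other than Herpud1, 3 were higher and 3 lower on Day 1 (median log2 FC = -0.01). The DEGs were Sec61a1, the channel by which new proteins enter the ER (log2 FC = 0.72 ± 0.08), and Erlec1, a lectin that binds misfolded glycoproteins (log2 FC = -0.63 ± 0.10). Among 9 sensors and their partners besides Xbp1, Creb3l2 and Traf2 were DEGs (log2 FC = 0.78 ± 0.10 and 0.81 ± 0.15). Of the sensors themselves, Ern1 (0.10 ± 0.10, adjusted p = 0.439) and Atf6 (0.10 ± 0.10, adjusted p = 0.423) gave no detectable change, and Eif2ak3 was lower, at 27.7 to 32.9 CPM against 34.98 to 36.9 CPM (log2 FC = -0.27 ± 0.06, adjusted p = 3.18e-04).

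The other eIF2 kinases, Eif2ak1 (log2 FC = -0.04), Eif2ak2 (0.10) and Eif2ak4 (-0.09), did not pass the test on Day 1. In their list of 15 genes, Eif2s1, which encodes the phosphorylated subunit of eIF2, was the DEG (log2 FC = 0.56 ± 0.10), and 3 genes were higher and 1 lower. Of 20 cytosolic aminoacyl-tRNA synthetases, a family that ATF4 is known to raise, 10 were higher and 0 lower on Day 1. Of all genes, 23.4% were higher and 21.6% lower. DESeq2 also gave 0 lower synthetases. An unadjusted p below 0.05 was found for 13 of the 20 and for 7345 of the 14221 genes. The largest increases were those of Mars, Vars and Tars (log2 FC = 0.65 ± 0.07, 0.57 ± 0.13 and 0.51 ± 0.08).

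The ATF4 and CHOP list showed changes in both directions. Of 23 genes other than the members, 11 were higher and 5 lower, with 9 and 3 DEGs. The largest increases were those of Nupr1, a stress-induced nuclear protein (log2 FC = 1.90 ± 0.32), Stc2 (1.03 ± 0.17) and the proline synthesis enzyme Aldh18a1 (0.79 ± 0.10). The DEGs with lower levels were the serine synthesis enzyme Phgdh (-0.999 ± 0.13), the cysteine-forming enzyme Cth (-0.88 ± 0.14) and Ddit4 (-0.82 ± 0.15). On Day 5 the cystine transporter Slc7a11 was the one DEG of the list, at 185 to 326 CPM after FGF1, 99.7 to 136 CPM in the non-diabetic and 91.2 to 138 CPM in the diabetic group (log2 FC = 0.93 ± 0.16 against each). On Day 1 its log2 FC was -0.27 ± 0.18 (adjusted p = 0.230), and the effects of the 2 days differed by 1.204 ± 0.24 (adjusted p = 1.19e-04).

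**Figure D3:**
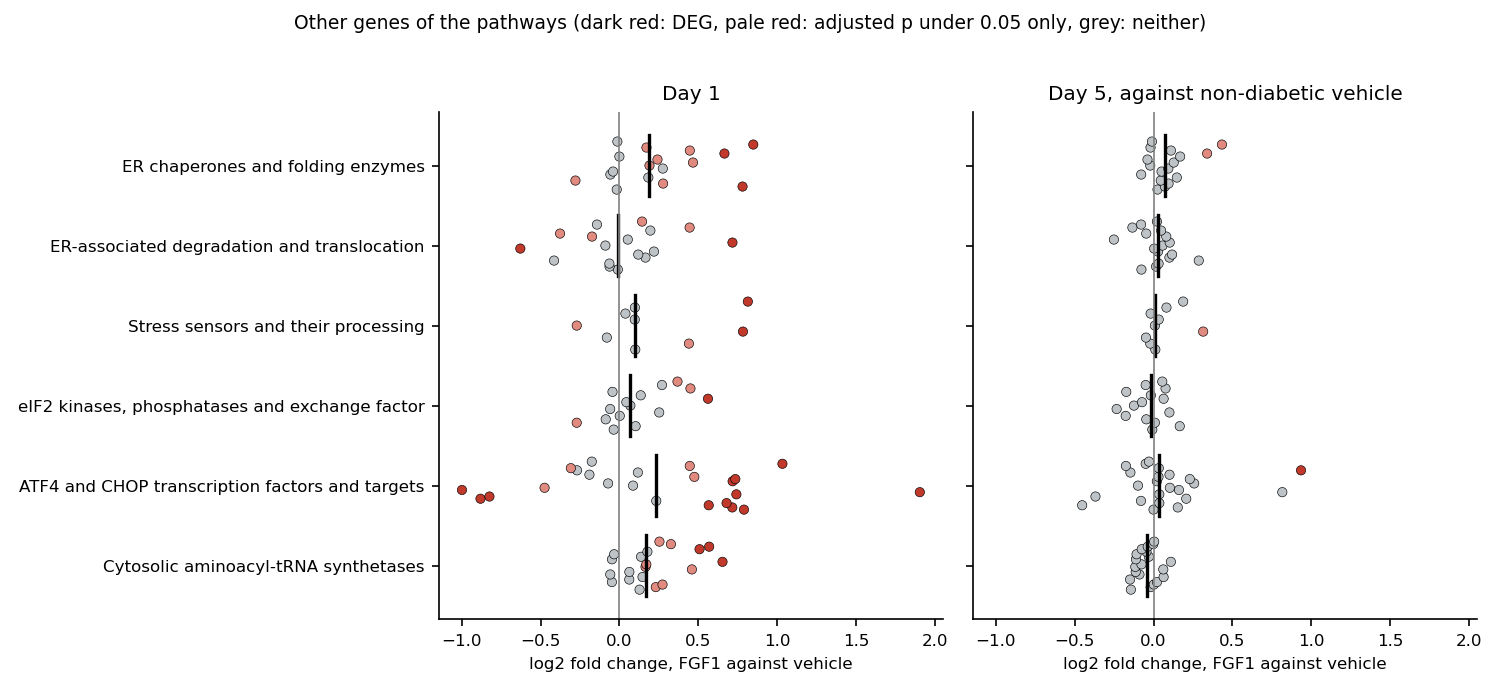
Log2 fold change of FGF1-treated against vehicle-treated mice for the 100 pathway genes other than the members, 1 point per gene and list, on Day 1 and on Day 5 against the non-diabetic vehicle group; black bars are list medians. Day 1 values reach from -0.999 for Phgdh to 1.90 for Nupr1, and on Day 5 the DEG is Slc7a11 at 0.93.

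The motifs were also set beside the FGF1 effect over the whole table. Of 11167 genes with both a promoter and counts, 19 held the ER stress element, with 1 higher and 2 lower DEGs among them on Day 1 (15.8%, next to 19.3% of the 11167) and a median log2 FC of 0.18 (0.01 over the 11167). The 304 genes with the C/EBP-ATF response element had 20.1% DEGs and a median log2 FC of 0.0038. The 116 genes with the unfolded protein response element had 17.2% DEGs, 8 higher and 12 lower, and a median log2 FC of -0.05, and of 9 genes with ER stress element II 1 was a DEG, with a lower level (median log2 FC = 0.27). Hspa5, Hsp90b1 and Calr, whose promoters are printed above, share the ER stress element. Of these, Calr was the one that passed the test in the model over all libraries. Differences in effect between these genes were not tested. On Day 1 the estimates for Hspa5 and Hsp90b1 were higher without vehicle-treated mouse 2, as given above, and did not pass. On Day 5, 8 of 9 FGF1-treated mice exceeded all non-diabetic vehicle-treated mice in Hsp90b1 (exact permutation p = 5.24e-04). For Hspa5 that p was 0.214. Hsp90b1 is therefore not shown to be unchanged.

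Between mice of a group, Hspa5 and Hsp90b1 varied oppositely to Herpud1, Ddit3 and Sesn2 on Days 1 and 42 and not on Day 5, given here as a description with no test. Correlations are Pearson's r of log2(CPM + 0.5) after the group means were subtracted, over 36 pairs of genes, and mice of a day share preparation and scaling. Hspa5 and Hsp90b1 varied most alike, with r = 0.87 over 47 libraries (Spearman's rho = 0.84, and 0.80 without the 2 libraries farthest from the median of Hspa5), and with 0.92, 0.74 and 0.88 within Days 1, 5 and 42 (14, 23 and 10 libraries). Hspa5 and Xbp1 followed with r = 0.65 (0.58, 0.67 and 0.80 within days). Hsp90b1 and Ddit3 varied oppositely on Days 1 and 42 (r = -0.68 and -0.85) and not on Day 5 (r = 0.12). Xbp1 and Atf4 had r = 0.64 on Day 1 and -0.58 on Day 42, with 0.04 over the 47 libraries. With 1 mouse left out, these values ran from 0.36 to 0.78 on Day 1 and from -0.80 to -0.31 on Day 42. The lowest size was reached without FGF1-treated mouse 6 on Day 1 and without vehicle-treated mouse 3 on Day 42. Herpud1 and Sesn2 had r = 0.81 on Day 1 and -0.07 on Day 5. On Day 42 the relations of Sesn2 rested in part on vehicle-treated mouse 5, since without it r went from 0.61 to -0.05 with Herpud1, from -0.73 to -0.40 with Hsp90b1 and from -0.44 to -0.20 with Hspa5, and that of Herpud1 with Ddit3 went from 0.76 to 0.37. Leaving out a mouse here was chosen after the values were seen. Tissue markers varied between mice as well. Those of thalamus ran from 436.7 to 1770 CPM on Day 42, where they ran from 330.3 to 460.3 CPM on Day 1. On Day 5 they ran from 464.7 to 1008 CPM. Markers of hypothalamus ran from 596.8 to 1488 CPM on Day 42. The part of such differences in tissue in these correlations was not tested.

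**Figure D4:**
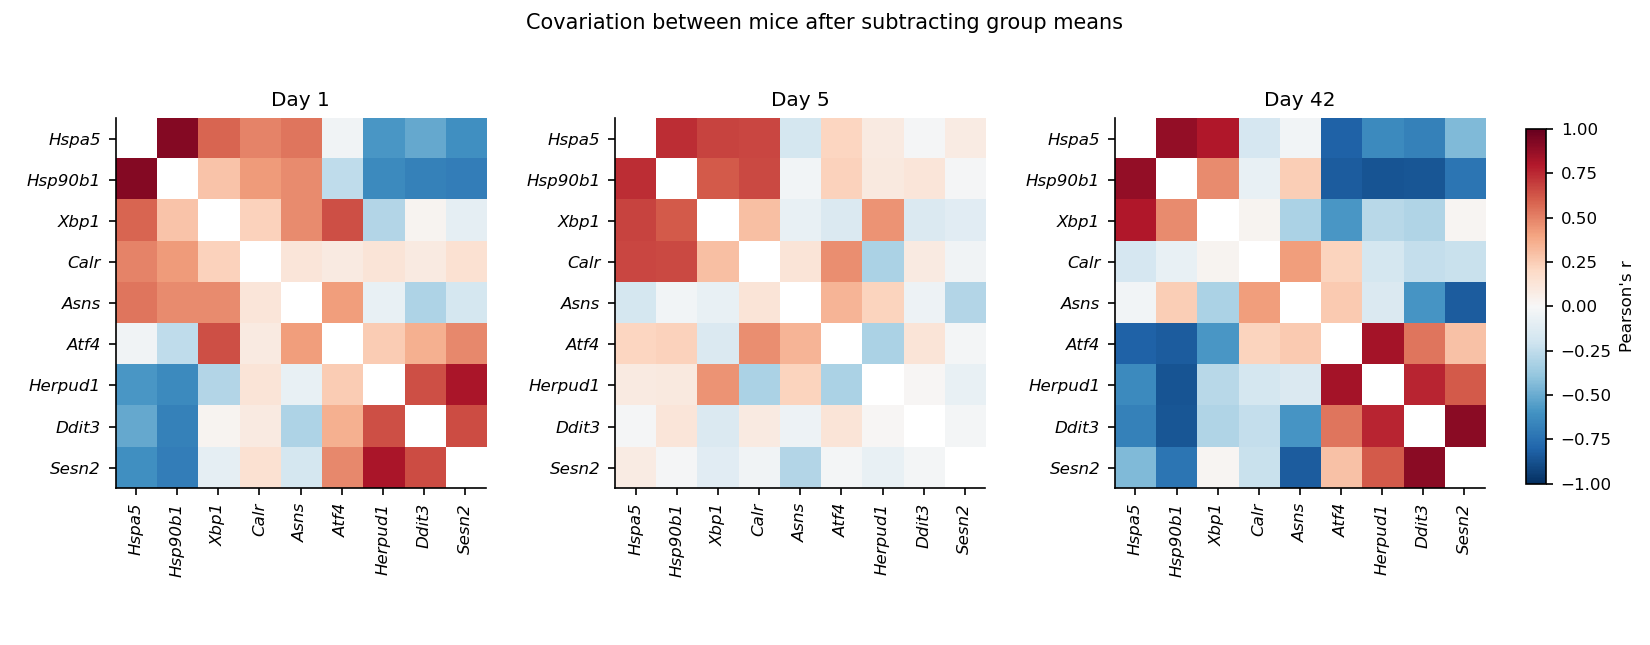
Pearson's r between the 9 genes over the mice of Day 1, Day 5 and Day 42 after subtraction of group means, as a colour from blue (-1) to red (1), with the diagonal left white. Hspa5 and Hsp90b1 are red on every day, and the blue blocks with Herpud1, Ddit3 and Sesn2 appear on Days 1 and 42 and are absent on Day 5.

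The genes most like each member over the 47 libraries, by Pearson's r after subtraction of day means, were Pdia3 (r = 0.81) and Hacd3 for Hspa5, Xpo1 (0.91) and Ppid for Hsp90b1, and Sdf2l1 (0.86) and Hexa for Calr. For Xbp1 they were Mcl1 (0.83) and Tmem185b, for Atf4 Nptx2 (0.83) and Dusp7, and for Herpud1 Arrdc2 (0.80) and Mrpl41. For Ddit3 they were Aspscr1 (0.84) and Ndufaf3, for Asns Slc1a1 (0.80) and Nptn, and for Sesn2 Rps6kl1 (0.76) and Supt5. Sdf2l1 and Pdia3 are themselves ER folding genes. Only day means were subtracted here, so the FGF1 effect is part of these correlations, and an effect shared with a member is in part fixed by the choice.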

How the data were processed

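Hypothalamic mRNA of 47 mice was sequenced from 1 strand-specific paired-end library per mouse, on a HiSeq or a NovaSeq instrument. The authors aligned the reads with STAR to a genome named as mouse build GRCh38, which is a human build name, and deposited whole-number counts per gene without normalization. The counting program, its use of strand and any filter on genes are not given in the sources used here. The table holds mouse gene symbols, of which 14161 of 14221 were found by name in GENCODE M21 of GRCm38, and every gene has at least 307 counts over all libraries.

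From these counts, TMM factors were computed and all 47 libraries were fitted in 1 model, in which each of the 7 groups had its own mean, with edgeR 4.0.16 under R 4.3.3, with its quasi-likelihood test and Benjamini-Hochberg adjustment over 14221 genes. The filter on low counts removed 0 genes. Normalized counts are CPM values with library totals scaled by the TMM factors. Errors of log2 fold changes are standard errors from the F statistic, and those of means are SD. Single genes were also compared between groups by two-sided exact permutation tests on log2(CPM + 0.5). Each member was tested in 5 comparisons of groups, and exact p-values are not adjusted. Mice are numbered in the order of the deposited samples, since the labels give no numbers, and each library is a separate mouse.

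The 10 genes, the 6 pathway lists and the marker lists were chosen with earlier results of these data known. Named besides the members are the ER sensors, the eIF2 kinases and the 2 genes most correlated with each member. Up to 3 DEGs with the largest change are also named from each pathway list and direction. This was done for FGF1 against vehicle within a day, and not for the differences between days. Genes of marker lists are named only as single cases. Pathway values given outside this rule were followed from another day or group after they were seen. They are those of Slc7a11 on Day 1, of Pdia4 on Day 5 and of Sdf2l1 on Day 5 against the non-diabetic group. Alternatives were the test of DESeq2 1.42.0, edgeR with the size factors of DESeq2, limma 3.58.1 after quantile normalization, other filters on low counts, a fit of each day alone, merged vehicle groups on Day 5, no threshold on the fold change, and libraries left out. The programs were tested on simulated counts. A planned search for retention signals at protein ends was not run, since no protein sequences were given. A deposited sheet that lists each library's preparation code was read for that code only.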

Additional observations from a re-analysis of the deposited data

Results flagged for a closer look

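The FGF1 effect differed between days for 2 genes by a test of the difference itself. For Xbp1 the effect of Day 5 lay -0.37 and that of Day 42 lay -0.31 from that of Day 1 on the log2 scale, and for Atf4 the differences were -0.32 and -0.40. The first of these for Atf4 lost its call without vehicle-treated mouse 1 of Day 1 (adjusted p = 0.0519), without mouse 2 (0.0535) and with DESeq2 size factors (0.0508). Each day had a preparation of its own, so the day and the preparation cannot be told apart in these differences.

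In 6 of 63 groups 1 mouse lay apart from the rest by Dixon's criterion, which chance meets in about 1 of 20 groups. On Day 1 vehicle-treated mouse 2 was high in Hsp90b1 (962.6 CPM) and vehicle-treated mouse 3 was low in Calr (418.6 CPM). On Day 5 FGF1-treated mouse 4 was high in Xbp1 (127.8 CPM), and mouse 1 of the non-diabetic and mouse 1 of the diabetic vehicle group were low in Hspa5 (330.1 and 309.5 CPM). Mouse 6 of the diabetic vehicle group was high in Sesn2 (16.51 CPM). Without vehicle-treated mouse 3 of Day 1 the increase of Calr on that day had a log2 value of 0.22 (adjusted p = 0.00422).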

How the results depend on the processing

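The counts of DEGs among the 9 genes stayed at 0 in every comparison and alternative but one: with no threshold on the fold change they were 4 on Day 1, 1 on Day 5 against each vehicle group, and 2 for each difference between days. The directions of Xbp1, Atf4, Calr and Herpud1 on Day 1 and of Calr on Day 5, and their adjusted p below 0.05, held in all alternatives run. Values near 0 changed sign. On Day 1, DESeq2 gave -0.0375 for Hspa5, -0.0267 for Hsp90b1 and -0.0197 for Asns, edgeR with its size factors gave the same values to 3 digits but -0.0266 for Hsp90b1, and the filter of 10 counts in every library gave -0.0038 for Hspa5. With 1 mouse left out on Day 1, Hspa5 ran from -0.0583 to 0.156, Hsp90b1 from -0.0385 to 0.190, Ddit3 from -0.130 to 0.0893 and Asns from -0.0175 to 0.106. On Day 5, Atf4 was -0.0178 with merged vehicle groups and -0.0117 without the 2 deepest FGF1 libraries, and Asns against the diabetic group was 0.0158 with the filter of 10 counts and 0.0046 without those 2 libraries. With 1 mouse left out on Day 42, Hsp90b1 ran from -0.118 to 0.0311, Herpud1 from -0.119 to 0.0534, Atf4 from -0.140 to 0.0341, Ddit3 from -0.212 to 0.0547 and Sesn2 from -0.101 to 0.108, and DESeq2 gave 0.00021 for Sesn2. Without vehicle-treated mouse 5 of Day 42 the last 4 of these genes turned sign. The difference of Calr between Days 5 and 1 was 0.0027 with merged vehicle groups and ran from -0.0819 to 0.0132 with 1 mouse left out. That of Atf4 lost its call with DESeq2 size factors (-0.28, adjusted p = 0.0508), and ran from -0.34 to -0.30 with 1 mouse left out. Between Days 42 and 1, Calr gained a call by quantile normalization (-0.30, adjusted p = 0.0064) and Herpud1 without vehicle-treated mouse 5 of Day 42 (0.29, adjusted p = 0.0149). The causes were not tested. No paired analysis was possible because the labels give the mice no numbers or pairs. Among all genes, DEGs on Day 1 numbered 2776, and 1582 of the 10973 genes with at least 10 counts in every library. On Day 5 against the non-diabetic group they numbered 219, and 140 under that filter, 363 by quantile normalization, 370 in the fit of Day 5 alone and 372 with merged vehicle groups. Against the diabetic group they numbered 406, and 219 under that filter. On Day 42 they ran from 0 to 31 with 1 mouse left out, with 31 without FGF1-treated mouse 1.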
